A study of Homo sapiens with 6 samples.

Results

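Aminoacyl-tRNA synthetases join each amino acid to its tRNA and so load the adaptors that ribosomes read. One set of nuclear genes serves the cytosol, and a second set, whose symbols end in 2, is imported into mitochondria. A group of the cytosolic enzymes is held in a large multi-synthetase complex by scaffold proteins that do not charge tRNA themselves. When amino acids run short, uncharged tRNA activates the kinase GCN2, and the transcription factor ATF4 then induces amino acid enzymes, transporters and a number of the cytosolic synthetases.

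The genes described here are 39 of the 35615 gene symbols in the table, taken by symbol: 20 for cytosolic enzymes or their subunits, 16 for mitochondrial enzymes and 3 for the scaffolds AIMP1, AIMP2 and EEF1E1 (also called AIMP3). GARS and KARS each encode both the cytosolic and the mitochondrial enzyme and were counted with the cytosolic genes. All 39 passed the filter on low counts. No measured value entered their choice, but they were listed with earlier results of these data known.

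Transcripts were counted in K562, a human erythroleukaemia cell line from chronic myeloid leukaemia that carries the BCR-ABL1 fusion kinase. The miR92a group (3 libraries) received 500 pmol of a miR-92a-1-5p mimic by nucleofection, and the scramble group (3 libraries) the same amount of a negative-control mimic. Both groups received 1 µM imatinib, an inhibitor of the ABL1 kinase, with a delay of 4 h from nucleofection, and were harvested after another 24 h. The series title asks which genes the mimic lowered; since both groups carry imatinib, the comparison says nothing of the drug's own effect. The libraries are labelled as biological replicates of 1 cell line, and nothing says whether they came from separate cultures, so p-values measure the spread between these libraries.

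Library totals were 24.8 to 26.0 M counts in 5 libraries, but 0.704 M in miR92a 1, where 3 counts stood for 4.08 CPM (counts per 1e6, TMM-scaled). The 39 genes had 3 to 294 counts in that library, with a median of 69 and a matching Poisson coefficient of variation of 12.0%, against 18 to 11871 counts in the others. The erythroid markers of K562 were abundant, with summed levels of 9242 to 18302 CPM in miR92a and 11751 to 19391 CPM in scramble libraries. The labels call the cells myeloblasts; the 7 myeloblast markers summed to 57.3 to 137 CPM in miR92a and 62.8 to 114 CPM in scramble libraries, mostly from KIT and CD33, which were present in every library. MPO had no count, ELANE and CD34 did not exceed 0.160 CPM, and AZU1 and PRTN3 reached at most 4.82 and 1.46 CPM. With 3 libraries a group, 63 of 14543 tested genes were higher and 142 lower with the mimic (edgeR quasi-likelihood test on group alone, Benjamini-Hochberg adjusted p under 0.05).

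The mimic is the 5′ strand of the MIR92A1 hairpin (chr13:91351324-91351346, plus strand, GRCh38.p14, RefSeq). It is shown because the sites below are read from it; capitals mark the seed, bases 2 to 8.
miR-92a-1-5p: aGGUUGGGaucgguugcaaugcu

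Of the 39 genes, 3 rose with the mimic and none fell. The 3 were the cytosolic glycyl-, methionyl- and tryptophanyl-tRNA synthetases GARS, MARS and WARS, with level ratios of 1.64, 1.53 and 1.53. Over all tested genes 0.433% were called higher and 0.976% lower, 1.41% in all. With the replicate number as a block, 5 of the 39 rose, the same 3 with TARS and CARS, and 2 fell, the mitochondrial genes EARS2 and LARS2, where 4.57% of all tested genes were called higher and 6.7% lower, 11.3% in all. The median log2 fold change was 0.18 over the 20 cytosolic genes, 0.01 over the 16 mitochondrial ones and 0.14 over the 3 scaffolds, against -0.01 over all tested genes. The fold change was positive for 18 of the 20 cytosolic and 8 of the 16 mitochondrial genes, and for 48.3% of all tested genes.

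**Figure D1:**
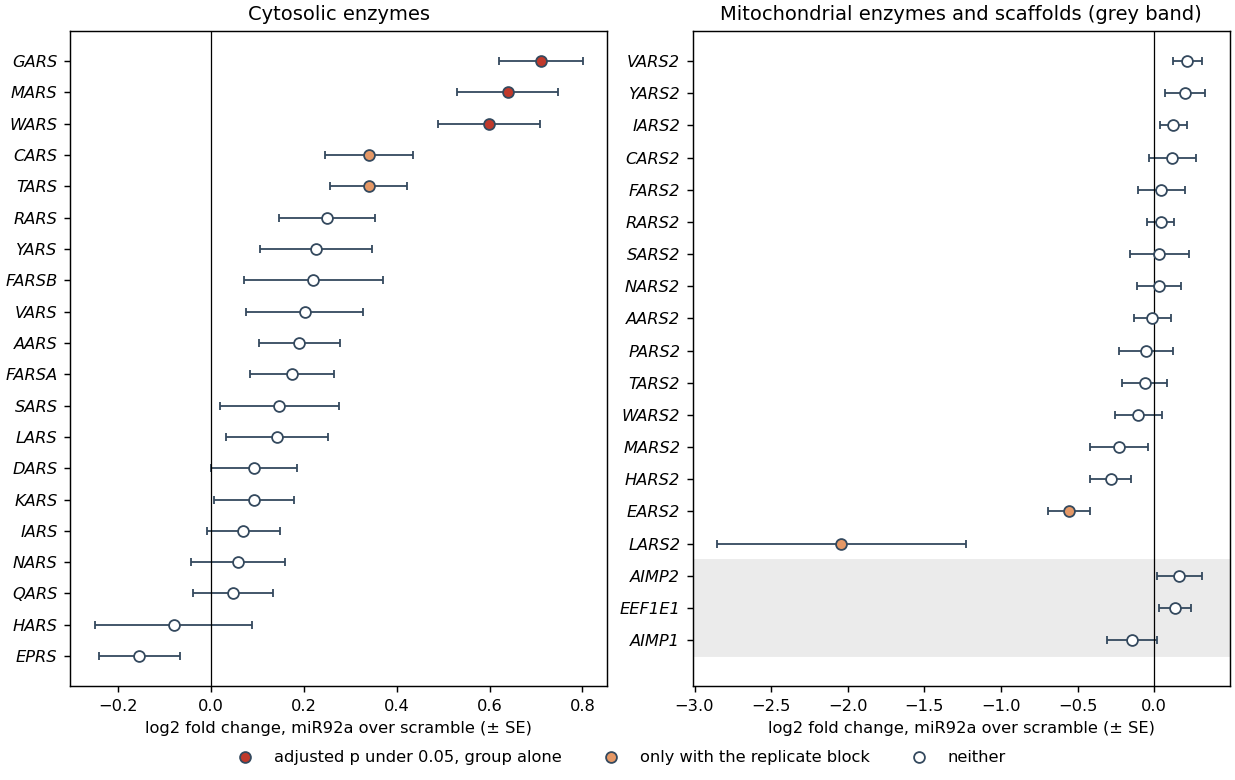
Log2 fold change of each of the 39 genes, miR92a over scramble, with its standard error (edgeR, n = 3 libraries per group), for the cytosolic enzymes on the left and the mitochondrial enzymes and scaffolds on the right, where the axis is wider. GARS, MARS and WARS lie between 0.60 and 0.71 and are set apart from the other cytosolic genes, the highest of which lie at 0.34; EARS2 and LARS2 are the lowest of the mitochondrial genes.

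GARS, which charges tRNA for glycine in both compartments (chromosome 7, 30594681 to 30634033, plus strand, GRCh38), had 316, 305 and 300 CPM in miR92a 1, 2 and 3, against 194, 197 and 170 CPM in scramble 1, 2 and 3. The groups did not overlap and lay far apart beside the spread within each. GARS averaged 307 ± 8.19 CPM with the mimic and 187 ± 15.1 CPM in controls (SD, n = 3 each). The log2 fold change was 0.71 ± 0.09 (SE) and the edgeR adjusted p 0.0079. The differences within the pairs numbered 1, 2 and 3 were 0.70, 0.63 and 0.82 on the log2 scale. Left out singly, miR92a 1 and miR92a 2 each ended the call (adjusted p = 0.0511 and 0.0529), while the fold change stayed at 0.69 and 0.71.

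WARS charges tRNA for tryptophan and is also known as a gene induced by interferon gamma (chromosome 14, 100333788 to 100376805). It had 121, 117 and 109 CPM in miR92a 1, 2 and 3, against 78.4, 82.5 and 66.3 CPM in scramble 1, 2 and 3. All mimic libraries lay above all control libraries, with a difference of 0.60 ± 0.11 on the log2 scale (SE, adjusted p = 0.042 by edgeR; 1.0e-04 with the replicate block). Each library left out in turn ended this call (adjusted p = 0.0501 to 0.158), as did scaling by total counts alone (0.0613).

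TARS and CARS, the enzymes for threonine and cysteine, passed only with the block. TARS had 299, 267 and 288 CPM in miR92a 1, 2 and 3, against 231, 223 and 218 CPM in scramble 1, 2 and 3. CARS had 81.6, 79.4 and 77.1 CPM in the mimic libraries, against 66.1, 62.5 and 58.5 CPM in the control libraries. Neither gene's groups overlapped. Both had a log2 fold change of 0.34, with standard errors of 0.08 for TARS and 0.09 for CARS. The adjusted p was 0.107 for TARS and 0.161 for CARS on group alone, and 0.0067 for TARS and 0.0156 for CARS with the block. Within the block, the TARS call was lost without the replicate 1 or the replicate 2 pair, and the CARS call without the replicate 2 pair.

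**Figure D2:**
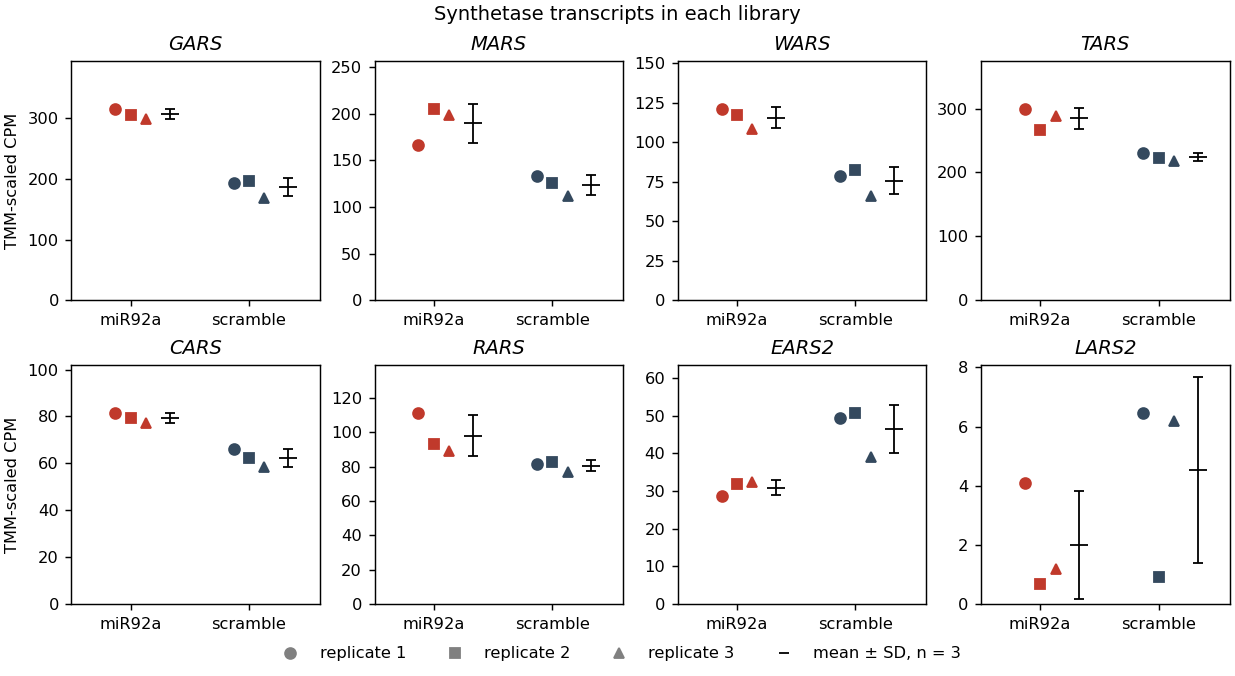
TMM-scaled CPM (each panel from 0) of the 8 genes with an unadjusted p under 0.05 or a call with the replicate block, in miR92a (red, left) and scramble (dark, right) libraries; symbols give the replicate number and bars the mean ± SD (n = 3). GARS, MARS, WARS, TARS, CARS and RARS have every mimic library above every control library, EARS2 has every mimic library below, and the LARS2 groups overlap.

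The other 8 of the 12 cytosolic genes outside the complex did not pass in either fit. Their log2 fold changes ran from -0.08 ± 0.17 (SE) for HARS, the histidine enzyme, to 0.23 ± 0.12 for YARS, the tyrosine enzyme. FARSA and FARSB, the alpha and beta subunits of the phenylalanine enzyme, had values of 0.17 ± 0.09 and 0.22 ± 0.15. AARS (alanine), VARS (valine), SARS (serine) and NARS (asparagine) had values of 0.19, 0.20, 0.15 and 0.06. AARS, FARSA and YARS had higher values in each mimic library than in any control library, though with small steps, as for AARS at 231, 240 and 268 CPM against 218, 223 and 211 CPM. In all, 9 of the 20 cytosolic genes had groups that did not overlap in the higher direction and none in the lower, where 9.73% and 11.5% of all tested genes did. At an unadjusted p under 0.05, 6 of the 20 were higher and none lower, against 6.0% and 7.51% of all tested genes.

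Within the multi-synthetase complex MARS was the 1 enzyme of 8 to pass, in both fits. MARS, which charges the initiator and elongator tRNA for methionine (chromosome 12, 57475445 to 57517569, plus strand), had 166, 205 and 198 CPM in miR92a 1, 2 and 3, against 134, 126 and 112 CPM in scramble 1, 2 and 3. The groups did not overlap. The difference was 0.64 ± 0.11 on the log2 scale (SE, adjusted p = 0.0327 by edgeR). It was 0.31 in pair 1, whose mimic library had 122 MARS counts, and 0.71 and 0.82 in pairs 2 and 3. The call held without scramble 3 (adjusted p = 0.0479) and was lost without each other library (up to 0.144).

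MARS shares exonic sequence with DDIT3 and ARHGAP9 on the opposite strand. DDIT3 encodes the stress transcription factor CHOP, and it had 20.4, 27.4 and 33.4 CPM in miR92a 1, 2 and 3, against 24.6, 26.2 and 22.6 CPM in scramble 1, 2 and 3 (log2 fold change 0.23 ± 0.16, adjusted p = 0.609). The groups overlapped. Of the 39 genes 19 share exonic sequence with a gene on the opposite strand, among them GARS, WARS, CARS and EARS2, and the library strand is not given in the sources used here, so reads of such partners cannot be told apart with certainty. For 13 of the 39, GARS, WARS, CARS, RARS and EEF1E1 included, GENCODE also names pseudogenes that can share reads. Some of the 39 share exonic sequence with a gene on the same strand, such as HARS2 with ZMAT2, VARS2 with GTF2H4 and EEF1E1 with EEF1E1-BLOC1S5.

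RARS, the arginine enzyme, had 112, 93.5 and 89.4 CPM in miR92a 1, 2 and 3, against 81.7, 83.0 and 76.9 CPM in scramble 1, 2 and 3. The groups did not overlap, but the difference of 0.25 ± 0.10 (SE) did not pass (adjusted p = 0.344; 0.0897 with the block). EPRS, 1 protein with both the glutamate and the proline enzyme, pointed the other way: 400, 426 and 384 CPM in miR92a 1, 2 and 3, against 466, 464 and 418 CPM in scramble 1, 2 and 3, with overlapping groups and a log2 fold change of -0.15 ± 0.09 (adjusted p = 0.510). KARS, the lysine enzyme of both compartments, had 223, 219 and 245 CPM with the mimic, against 223, 218 and 205 CPM in controls. Its groups overlapped, at a log2 fold change of 0.09 ± 0.09 (adjusted p = 0.726). LARS, which also senses leucine for the growth kinase mTORC1, IARS, QARS and DARS had values of 0.14, 0.07, 0.05 and 0.09.

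The scaffolds that hold these enzymes together did not pass in either fit. AIMP2, the core scaffold, had a log2 fold change of 0.16 ± 0.15 (SE), EEF1E1 one of 0.14 ± 0.11, and AIMP1, whose cleaved form is a cytokine, one of -0.15 ± 0.16. AIMP1 had 51.7, 84.4 and 70.5 CPM in miR92a 1, 2 and 3, against 84.7, 87.4 and 68.3 CPM in scramble 1, 2 and 3, so the groups overlapped and the low value was that of the shallow library. The complex as a whole, 8 enzymes and 3 scaffolds, had a median log2 fold change of 0.09, and the 12 cytosolic genes outside it one of 0.21.

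Summed over genes, the 12 cytosolic genes outside the complex held 2097, 2108 and 2095 CPM in miR92a 1, 2 and 3, against 1782, 1793 and 1613 CPM in scramble 1, 2 and 3. The groups did not overlap, and the mean was higher by 21.4%. The 8 complex enzymes held 1869, 1856 and 1803 CPM with the mimic, against 1795, 1762 and 1639 CPM in controls, a mean higher by 6.41%. These groups did not overlap either, though by a small step. The 16 mitochondrial genes held 769, 804 and 818 CPM with the mimic, against 800, 801 and 762 CPM in controls, and these groups overlapped. Without GARS, MARS and WARS the other 17 cytosolic genes held 3363, 3337 and 3291 CPM with the mimic and 3170, 3150 and 2904 CPM in controls, a mean higher by 8.33%. Scramble 3 was the lowest library in the cytosolic sums, and the cytosolic median was 0.11 without it.

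**Figure D3:**
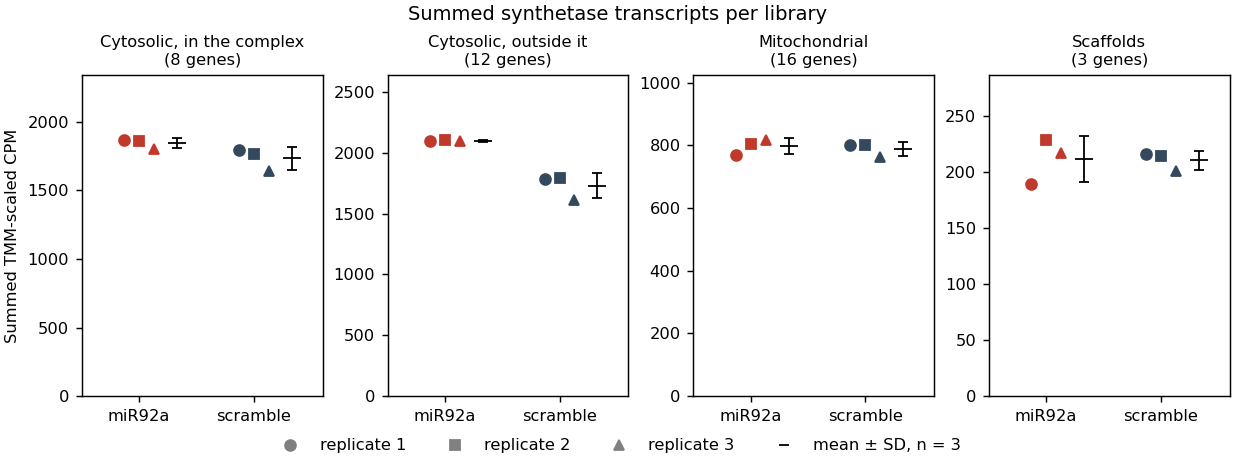
Summed TMM-scaled CPM of 4 groups of genes in each miR92a (red, left) and scramble (dark, right) library, with the axes starting at 0, symbols for the replicate number and bars for the mean ± SD (n = 3). The cytosolic genes outside the complex lie at 2095 to 2108 in mimic libraries and 1613 to 1793 in control libraries. The complex enzymes lie at 1803 to 1869 and 1639 to 1795, also without overlap, whereas the mitochondrial and scaffold groups overlap.

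The mitochondrial enzymes make the charged tRNAs for the few proteins encoded by mitochondrial DNA. None of the 16 genes passed on group alone by edgeR, DESeq2 or limma-voom, and at an unadjusted p under 0.05 edgeR had 2 lower and none higher, against 7.51% lower and 6.0% higher over all tested genes. EARS2 charges mitochondrial tRNA with glutamate (chromosome 16, 23522014 to 23557731, minus strand). It had 28.6, 31.8 and 32.3 CPM in miR92a 1, 2 and 3, against 49.4, 50.8 and 39.1 CPM in scramble 1, 2 and 3. The groups did not overlap, and scramble 3 was nearest to the mimic libraries. EARS2 averaged 30.9 ± 2.03 CPM with the mimic and 46.4 ± 6.38 CPM in controls (SD, n = 3 each). The log2 fold change was -0.56 ± 0.14 (SE, adjusted p = 0.106 by edgeR) and passed with the block (-0.52 ± 0.12, adjusted p = 0.0079) or without scramble 3 (-0.66, adjusted p = 0.0402). The block's call was lost with the replicate 2 pair left out.

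LARS2, the mitochondrial leucine enzyme, was listed far lower than the other synthetases, with 4.08, 0.687 and 1.20 CPM in miR92a 1, 2 and 3, against 6.47, 0.909 and 6.20 CPM in scramble 1, 2 and 3. The groups overlapped, with scramble 2 as low as the deep mimic libraries. The value in miR92a 1 rests on 3 counts, whose exact Poisson 95% interval is 0.842 to 11.9 CPM. The log2 fold change was -2.04 ± 0.81 (SE, adjusted p = 0.321) and passed with the block at -1.48 ± 0.39 (adjusted p = 0.0156). That blocked call was lost without the replicate 3 pair, in which the difference was -1.98 against -0.61 and -0.25 in pairs 1 and 2.

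The remaining 14 mitochondrial genes ran from -0.28 ± 0.14 for HARS2 to 0.22 ± 0.10 for VARS2. HARS2, the mitochondrial histidine enzyme, lies head to head with HARS and shares exonic sequence with it on the other strand. It had 20.4, 18.3 and 21.6 CPM in miR92a 1, 2 and 3, against 26.0, 22.6 and 24.5 CPM in scramble 1, 2 and 3, without overlap (adjusted p = 0.414). VARS2 and YARS2 had mimic values above all control values, at adjusted p = 0.377 and 0.588. PARS2 and FARS2, for proline and phenylalanine, rest on 6 and 9 counts in miR92a 1. The mitochondrial partners of the 3 called enzymes that have one of their own had values of -0.23 ± 0.19 for MARS2 and -0.10 ± 0.16 for WARS2.

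Levels can be set beside each other per length. Per kilobase of the longest annotated coding transcript, the mean level over the 6 libraries had a median of 60.1 CPM over the cytosolic genes, 13.3 CPM over the mitochondrial genes and 37.9 CPM over the scaffolds. On this scale GARS was the highest at 93.7 CPM per kilobase, with KARS at 91.7, and HARS was the lowest cytosolic gene at 14.3. Per kilobase of coding sequence the order within the classes changed: the medians were 79.3 CPM for cytosolic, 21.5 for mitochondrial and 73.9 for scaffold genes, NARS was the highest cytosolic gene at 121, with KARS at 118, TARS at 112 and GARS at 111, and CARS was the lowest at 28.4. EEF1E1, which shares exonic sequence with EEF1E1-BLOC1S5 on its own strand, was then the highest of the 39 at 173. IARS2 was the highest mitochondrial gene on both scales, at 65.7 CPM per kilobase of transcript, above the cytosolic median, and 77.0 per kilobase of coding sequence, below it. LARS2 was the lowest on both scales. The isoforms in these cells were not measured, so beyond this no order of the genes is given.

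Matches to the miR-92a-1-5p seed were sought in the longest annotated 3′ UTR of each gene (GENCODE release 29, GRCh38). A match was counted as the 7mer-m8 CCCAACC, the 7mer-A1 CCAACCA or the 8mer CCCAACCA that contains both. Of the 39 genes 3 (7.69%) held at least 1 match, against 2173 of 12885 tested genes (16.9%), with a median 3′ UTR length of 545 bases for the 39 and 1327 bases for all. None of the 20 cytosolic genes or 3 scaffolds held one. The 3 genes with a match were EARS2, LARS2 and TARS2, all mitochondrial. They made up 18.8% of the 16 mitochondrial genes, near the share of all tested genes. EARS2 and LARS2 were also the 2 genes lower with the block, and whether the matches bear on their levels was not tested. TARS2, the mitochondrial threonine enzyme, had 38.1, 44.9 and 34.0 CPM in miR92a 1, 2 and 3, against 42.5, 44.2 and 36.2 CPM in scramble 1, 2 and 3, with overlapping groups and a log2 fold change of -0.06 ± 0.15 (SE).

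The 5 matches are printed in the sense of the transcript with 10 flanking bases on each side and the match in capitals. EARS2 held an 8mer at base 1202 of its 3′ UTR (chr16:23523162-23523169, minus strand) and a 7mer-m8 at base 194 (chr16:23524171-23524177, minus strand). LARS2 held 7mer-m8 matches at chr3:45548194-45548200 and chr3:45548360-45548366, and TARS2 one at chr1:150507127-150507133, all on the plus strand. The coordinates are those of the capitals.
EARS2 8mer: taagttggccCCCAACCAtccctgcctt
EARS2 7mer-m8: gctggggaagCCCAACCcatctaacct
LARS2 first 7mer-m8: gcctgtcctcCCCAACCccagctggat
LARS2 second 7mer-m8: ggctgctggtCCCAACCtcagagcccc
TARS2 7mer-m8: catgggagacCCCAACCcagctgacaa
A match is a description of the sequence, and binding of the mimic there was not measured.

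Promoters were sought for the members that passed and for the others alike. RefSeq promoters (GRCh38.p14, 250 bases before to 50 after the start) were found for 29 of the 39 genes, not for AARS2, DARS, GARS, LARS, MARS, QARS, SARS, VARS, VARS2 and YARS. They were searched on both strands for TGATGNAAN, the core of the element to which ATF4 binds with C/EBP partners, and for the E-box CACGTG, which MYC binds among other factors. No match of one overlapped a match of the other. TGATGNAAN was held by 5 of the 12 cytosolic promoters and 1 of the 14 mitochondrial ones (YARS2), against 3.67% of 27305 promoters of the same length. The E-box was held by IARS, CARS2, EARS2 and MARS2, 4 of the 29, against 7.43%.

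The 5 cytosolic matches to TGATGNAAN are shown with 10 flanking bases in the direction of transcription, the match in capitals. The printed stretches are chr16:70289676-70289704 for AARS, chr11:3057408-3057436 for CARS, chr9:92293693-92293721 for IARS and chr18:57621804-57621832 for NARS, all on the minus strand, and chr5:33440956-33440984 on the plus strand for TARS. That of NARS reads as the motif is written, and the other 4 read as its reverse complement.
AARS: ttttctcgcaGTTGCATCAgccaagttag
CARS: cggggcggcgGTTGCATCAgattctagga
IARS: ttttcagcgcGTTGCATCAcctccgtgcg
NARS: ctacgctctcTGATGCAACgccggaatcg
TARS: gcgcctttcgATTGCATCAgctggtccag
The match began 188 bases before the annotated start in AARS, 14 before it in IARS and 3 before it in CARS, and 1 base after it in TARS and 14 after it in NARS. CARS and TARS rose with the block, whereas AARS, IARS and NARS did not pass, at log2 fold changes of 0.19, 0.07 and 0.06. The WARS promoter held neither motif in this window, and those of GARS and MARS could not be read.

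ATF4 and its targets were set beside the synthetases as a list. None of the 14 regulators and targets passed, in edgeR on group alone or with the block, in DESeq2 or in limma-voom. In the edgeR fit on group alone, none had an unadjusted p under 0.05. Their median log2 fold change was 0.15, and 11 of the 14 were positive and 3 negative, where 48.3% of all tested genes were positive. Several of the positive changes were smaller than their standard errors, and some belonged to genes with only 0 or 1 counts in miR92a 1. ATF4 had 278, 272 and 259 CPM in miR92a 1, 2 and 3, against 251, 247 and 236 CPM in scramble 1, 2 and 3, without overlap (0.14 ± 0.08, SE, adjusted p = 0.526). PPP1R15A, the phosphatase subunit that ends the stress signal, had a log2 fold change of 0.05 ± 0.10.

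Among 22 genes of amino acid synthesis and transport 1 fell and none rose, against 0.976% lower and 0.433% higher over all tested genes. It was PYCR1, the mitochondrial enzyme of the last step of proline synthesis, at 103, 119 and 87.7 CPM in miR92a 1, 2 and 3, against 205, 219 and 152 CPM in scramble 1, 2 and 3 (-0.89 ± 0.17, SE, adjusted p = 0.0448). Its groups did not overlap. Left out singly, each library but scramble 3 ended the call (up to 0.169), and limma-voom did not make it (0.0613). With the block 5 of the list rose and PYCR1 fell, where 4.57% of all tested genes rose and 6.7% fell. Asparagine synthetase ASNS, chosen after its values were seen, was among the 5, at 0.50 ± 0.10 (edgeR adjusted p = 0.0021 with the block, 0.230 without it). The others were PSAT1, CBS, SLC7A5 and PHGDH, the last with 0 counts in miR92a 1. Over the 22 genes the median log2 fold change on group alone was -0.0044, with 11 positive and 11 negative.

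Other genes that handle tRNA were taken in lists of their own. Of 25 tRNA processing and export genes 1 rose, against 0.433% of all tested genes. It was the tRNA ligase RTCB, which joins the exons of spliced tRNAs. RTCB had 78.9, 78.3 and 92.2 CPM in miR92a 1, 2 and 3, against 55.1, 53.5 and 54.0 CPM in scramble 1, 2 and 3. The log2 fold change was 0.63 ± 0.10 (SE, adjusted p = 0.0261), the groups did not overlap, and the call was kept only without scramble 3 when libraries were left out 1 at a time (up to 0.143). With the block 2 of the 25 rose and none fell, against 4.57% and 6.7% of all tested genes. They were RTCB and TSEN15, a subunit of the tRNA splicing endonuclease (0.78 ± 0.19, SE, adjusted p = 0.0102 with the block, 0.247 without it). Of 9 genes of tRNA editing, amidation and selenocysteine none passed on group alone by edgeR, DESeq2 or limma-voom (2 higher and none lower at an unadjusted p under 0.05 in edgeR, against 6.0% and 7.51% of all tested genes). With the block QRSL1, a subunit of the enzyme that makes mitochondrial glutaminyl-tRNA from the product of EARS2, rose by 0.38 ± 0.12 (adjusted p = 0.0441). No other of the 9 passed with the block, where 4.57% of all tested genes were called higher. The median log2 fold change of the 9 on group alone was 0.14, with 8 positive and 1 negative.

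Of 13 elongation factors and GCN2 arm genes 1 fell, against 0.976% of all tested genes. It was EEF1G, the gamma subunit of the factor that reloads the tRNA carrier eEF1A with GTP. It had 1069, 1222 and 1069 CPM in miR92a 1, 2 and 3, against 2334, 2338 and 2272 CPM in scramble 1, 2 and 3. The groups lay far apart, the difference was -1.05 ± 0.09 on the log2 scale (SE, adjusted p = 0.0020), and the call held without each library (up to 0.0221). With the block 2 of the 13 fell and 2 rose, against 6.7% and 4.57% of all tested genes. Besides EEF1G, EEF1A1 fell (-0.27 ± 0.07, SE, edgeR adjusted p = 0.0127 with the block), while EEF1A2 and EIF5A rose. Of 18 RNA polymerase III genes, whose products transcribe the tRNA genes, 1 fell, against the same 0.976%. It was the subunit POLR3G, at 9.52, 4.77 and 6.89 CPM in miR92a 1, 2 and 3, against 16.2, 13.7 and 13.6 CPM in scramble 1, 2 and 3 (-1.23 ± 0.23, adjusted p = 0.0464). Its groups did not overlap, but its call was lost without any 1 library (0.0561 to 0.227) and miR92a 1 held 7 of its counts. With the block 4 of the 18 fell and 1 rose, against the same 6.7% and 4.57%. Besides POLR3G, BDP1, GTF3C2 and GTF3C5 fell, and POLR3F rose.

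**Figure D4:**
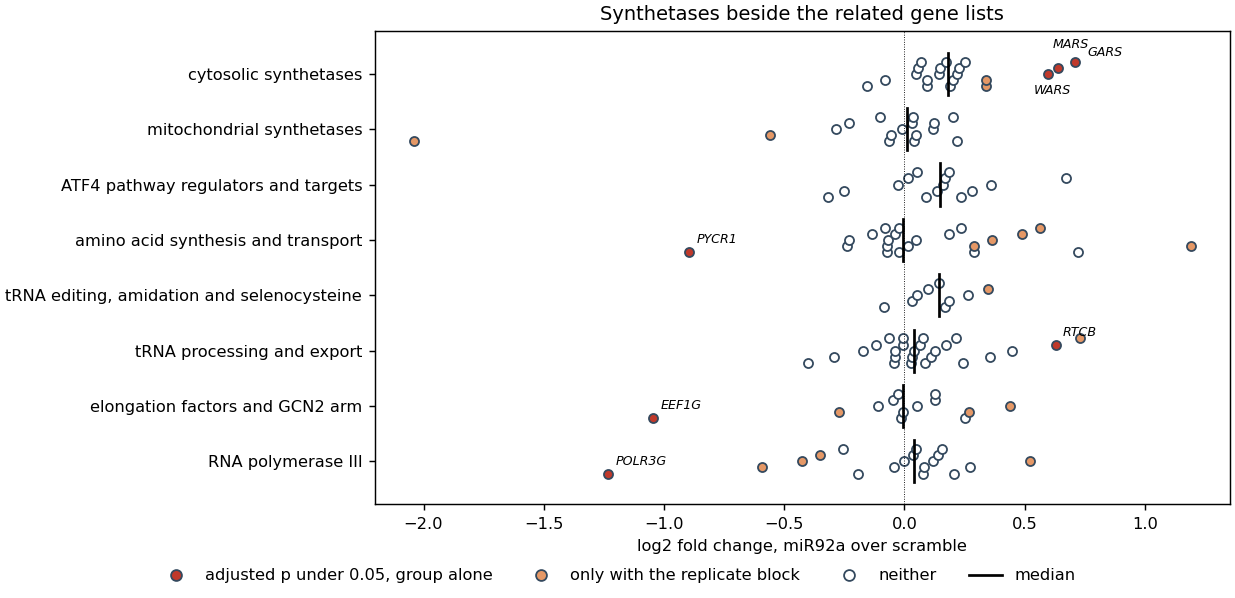
Log2 fold change (miR92a over scramble, 1 point per gene, spread vertically for legibility) of the cytosolic and mitochondrial synthetases and of 6 lists of related genes, with the median of each as a bar and genes past the threshold named. The cytosolic synthetases have a median of 0.18, the ATF4 list one of 0.15 and the tRNA editing, amidation and selenocysteine list one of 0.14. The tRNA processing and RNA polymerase III lists each have a median of 0.04. The amino acid and elongation lists centre near 0, each with 1 gene called lower.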

How the data were processed

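Per the labels, total RNA of 5 M cells per library was sequenced from both ends (stated coverage 62 M on average), and the authors quantified it with kallisto; GRCh38 is the build in the submitters' processing notes. The version, annotation, strand and step from transcripts to genes are not given in the sources used here. Deposited values were expected counts (estimated counts per gene symbol, whole numbers, not scaled), and 12102 symbols were 0 throughout. The model used edgeR 4.0.16 under R 4.3.3: filterByExpr (14543 genes), TMM, quasi-likelihood F-test on group alone, Benjamini-Hochberg adjustment over all genes, threshold 0.05. The SE is the log2 fold change over the square root of F. CPM is TMM-scaled, and pair differences used a pseudocount of 0.5 CPM. Alternatives were DESeq2 1.42.0, limma 3.58.1 (voom), other scalings and filters, the replicate block, and libraries left out. On simulated counts (14592 genes) edgeR found 61.2% of the genes given a 1.5-fold change, 91.0% at 2-fold and 100% at 4-fold. The simulation gave every gene the same fixed dispersion and no replicate effect, so these shares do not measure the power in the real libraries.

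The replicate numbers were taken as pairs because same-numbered libraries deviated together from their group means over 14543 genes (correlations 0.15, 0.16 and 0.42); between replicates 1 and 2 the crossed correlations were 0.099 and 0.090. Over the 4829 most abundant genes the same-numbered correlations were 0.37, 0.48 and 0.63, but miR92a 2 correlated more with scramble 1 (0.52) than with scramble 2, so the pairing of replicates 1 and 2 is uncertain.

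The members and the 6 related lists were chosen with earlier results of these data known. Values in every library are given for members with an unadjusted p under 0.05 or a call with the block, for EPRS, KARS and GARS, and for members named afterwards. From each list the genes past the threshold were named, otherwise up to 2 past it with the block, otherwise the 2 with the highest mean CPM. Outside this rule, the genes of the amino acid, tRNA processing, elongation and RNA polymerase III lists that passed only with the block were named as well. Sequences came from GENCODE release 29 and RefSeq; 13656 of 14543 tested symbols matched GENCODE. Python 3.11.15, pandas 2.3.3 and matplotlib 3.10.9 were used. Intervals cover counting error only.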

Additional observations from a re-analysis of the deposited data

How the results depend on the processing

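The replicate block gave 1639 called genes and 7 synthetase genes, against 205 and 3 without it. DESeq2 called 379 genes but the same number of synthetase genes, 3, as did limma-voom, median-of-ratios scaling and both other filters, and total counts alone called 2 (GARS and MARS). With libraries left out 1 at a time the calls ranged from 70 to 201 genes and from 0 to 3 synthetase genes, the 0 without miR92a 1 or miR92a 2. The median log2 fold change then ranged from 0.068 to 0.117 over the 39 genes, 0.105 to 0.209 over the cytosolic, -0.0753 to 0.0519 over the mitochondrial and 0.0421 to 0.139 over the scaffold genes; the lowest of each came without scramble 3. The block with a pair left out, added after the data were seen, called 1237, 834 and 1420 genes and 6, 4 and 7 synthetase genes without pair 1, 2 and 3, with medians of 0.126, 0.119 and 0.0928 over all 39 in that order, 0.121 to 0.229 over the cytosolic, -0.033 to 0.0608 over the mitochondrial and 0.0775 to 0.126 over the scaffold genes. The block changed the call of TARS, CARS, EARS2 and LARS2 and of no other synthetase gene, and FARSB passed with the block when pair 3 was left out. Over the 16 alternatives 27 of the 39 genes kept their sign, and none of the 12 that did not was ever called. The cause of these shifts was not tested. With any annotated 3′ UTR in place of the longest, 3 of the 39 genes again held a seed match, against 18.6% of all tested genes. The depth of miR92a 1 limits all genes with few counts there.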

Other observations

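The shallow library miR92a 1 differed from the other mimic libraries in single members and in both directions. HARS had 31.3 CPM in miR92a 1, on 23 counts, against 49.6 and 59.0 CPM in miR92a 2 and 3. NARS was highest in miR92a 1, at 233 CPM against 197 and 183 CPM.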
